A study of Mus musculus with 68 samples.

Results

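The genes of the spliceosome machinery were taken from RNA-seq tables of mouse embryos made by nuclear transfer from somatic cells (SCNT) and of blastocysts from fertilization. The members are the 60 of 24421 reference genes whose symbol is Srsf, Sf3a, Sf3b, Prpf, U2af or Lsm followed by a digit, or Snrp followed by one of the letters a to g or by 7. They were chosen by name and not by a measured value, though earlier results of these data were known when the rule was set. RNA was copied by Smart-seq2, an assay of polyadenylated RNA from a few cells, and 10 blastomeres went into each reaction. The SCNT experiment held 3 libraries of cumulus cells (CCs, the nuclear donors) and 53 embryo libraries. Each embryo group had 6 libraries, except 4C, which had 5: the groups were 6 hpa, 14 hpa, early 2-cell (E2C), late 2-cell (L2C), 4C, 8C, morula, and 2 tissues of SCNT blastocysts, ICM (inner cell mass) and TE (trophectoderm, the outer layer). The unit hpa is hours post activation. Oocytes came from BDF1 (B6D2F1) mice, and they were enucleated by pipette, injected with a cumulus cell nucleus and activated with strontium in the presence of cytochalasin B. The second experiment held 12 libraries from fertilized C57BL/6j blastocysts, again split into ICM and TE, with 2 libraries in each of 6 groups. Their zygotes had been injected with morpholinos, antisense oligonucleotides that block the translation or splicing of an mRNA, against Max (Max MO) or Mcrs1 (Mcrs1 MO), or with a random control morpholino (control MO). The control MO libraries are labelled control and untreated, and the study gave the control MO at a higher concentration than the other morpholinos. The females were young adults by the study's methods. The ICM and TE were separated by hand, and the labels do not say whether replicates came from separate batches of embryos, so p-values measure the spread between these libraries, which may be technical.

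The spliceosome removes introns from pre-mRNA. It is built from small nuclear RNAs and proteins that join the transcript in steps. U1 binds the 5′ splice site, U2AF and the SF3A and SF3B complexes of U2 bind around the branch point, the U4/U6.U5 tri-snRNP joins, and Prp proteins rearrange and activate the assembly. A ring of Sm proteins (Snrpb, Snrpd1, Snrpd2, Snrpd3, Snrpe, Snrpf and Snrpg) sits on U1, U2, U4 and U5, and a ring of Lsm2 to Lsm8 sits on U6. SR proteins bind exonic enhancers and help choose splice sites. Not every member works in the spliceosome: Lsm1 belongs to an mRNA decay ring, Lsm10 and Lsm11 to the U7 particle of histone mRNA processing, Lsm14a and Lsm14b to cytoplasmic RNA granules, and Lsm12 to none of these. In early embryos, RNA inherited from the oocyte is degraded while the embryo's own genome is switched on, in the mouse mainly at the 2-cell stage. Max is the partner through which Myc binds the DNA word CACGTG.

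Max binds CACGTG, so promoters of members that hold this word are shown first, with the word in capitals. Sequences are RefSeq windows of GRCm38.p6 from 250 bases before to 50 bases after each listed start, and 50 of the 60 members had a window. The word reads the same on both strands, was searched without mismatch and overlaps no other motif searched. It was found in 4 of the 50 members, or 8%, against 8.09% of all 27025 symbols. The members share this word about as often as all genes do. Each run below has 60 bases, written 5′ to 3′ on the strand of the gene.
Prpf3, chr3:95855841-95855900 (-): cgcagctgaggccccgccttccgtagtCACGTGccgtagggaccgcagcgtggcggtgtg
Snrpa, chr7:27196312-27196371 (-): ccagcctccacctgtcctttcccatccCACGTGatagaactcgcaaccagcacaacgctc
Snrpa, chr7:27195797-27195856 (-): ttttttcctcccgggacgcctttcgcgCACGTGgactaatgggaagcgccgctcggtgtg
Prpf39, chr12:65036264-65036323 (+): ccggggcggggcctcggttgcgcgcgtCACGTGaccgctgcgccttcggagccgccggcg
Prpf40b, chr15:99295023-99295082 (+): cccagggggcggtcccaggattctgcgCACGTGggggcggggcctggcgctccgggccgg
The window of Sf3a2, the member with the most outlying values, holds no CACGTG. It has a GC content of 65% and 41 CG pairs and is shown whole, with the 50 bases after the start in capitals.
Sf3a2, chr10:80798485-80798784 (+): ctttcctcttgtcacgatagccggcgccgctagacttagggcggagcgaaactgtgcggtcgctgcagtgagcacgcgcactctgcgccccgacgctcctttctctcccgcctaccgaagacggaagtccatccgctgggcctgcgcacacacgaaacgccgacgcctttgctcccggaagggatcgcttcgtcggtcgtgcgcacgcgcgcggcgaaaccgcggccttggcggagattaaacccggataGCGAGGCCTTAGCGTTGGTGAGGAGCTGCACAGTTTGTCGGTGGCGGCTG

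Values are TPM, a read-based measure of transcript abundance corrected for gene length, as the authors' StringTie tables give them, summed per gene, on a scale where the loci assembled in each library sum to 1000000. The reference genes took between 30.4% and 94.4% of that total. The lowest shares in the SCNT experiment were in L2C replicate 1 (30.4%) and 4C replicate 1 (44%). In 6 of 9 SCNT groups replicates 1 to 3 all had a lower share than replicates 4 to 6, as at 14 hpa (53.7% to 63.8% against 65.2% to 69.2%), E2C (59.5% to 62.9% against 67.2% to 69.1%) and 4C (44.0% to 53.1% against 73.5% to 75.6%). The study's protocol names 3 replicates per stage, so the 2 sets may not be exchangeable, and counts are given for each set where they differ. The title of 1 library gives 4C replicate 5 and its file gives 6, and the title was followed. The tables hold no read counts, so the reads behind a gene are unknown, and aligned bases ranged from 1.00 to 5.17 gigabases per library. The summed level of 8 cumulus cell markers was 1519 to 2247 TPM in CCs and at most 60.4 TPM elsewhere, and that of 6 oocyte markers was 4190 to 8129 TPM at 6 hpa. In SCNT blastocysts, 8 ICM markers summed to 344 to 899 TPM in the ICM and 67.3 to 379 TPM in the TE, and 8 TE markers to 2095 to 8748 TPM in the ICM and 6162 to 17209 TPM in the TE, so the 2 separated tissues overlapped in both lists. Groups were compared with limma on log2(TPM + 1), a scale that understates the change of low genes. A gene passed the test, and is said to have risen or fallen, at a Benjamini-Hochberg adjusted p under 0.05 over all genes tested and at least a 2-fold change. A gene below 1 TPM on average was not tested, which left 58 members in the SCNT fits and 57 in the morpholino fit. In bulk samples, fewer cells of a type and less RNA per cell cannot be told apart.

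All 60 members reached 1 TPM in at least 1 library, 37 did so in every library, and 48 were above 0 in every library. The highest mean over the 68 libraries among the Sm genes was that of Snrpe, with 723 TPM, and the lowest that of Snrpd3, with 192 TPM. Among the U1 and U2 proteins, Snrpa1 (U2 A′) was highest with 343 TPM and Snrpa (the A protein of U1) lowest with 150.1 TPM. In SF3B, which holds the branch point in place, Sf3b5 averaged 237 TPM and Sf3b3 31.5 TPM. In SF3A, the partner complex of SF3B in U2, Sf3a3 averaged 108 TPM and Sf3a2 8.65 TPM. U2AF recognizes the 3′ splice site. Its large subunit U2af2 averaged 3.14 TPM, whereas U2af1l4, a relative of the small subunit U2af1, averaged 149.6 TPM. Among the Prp proteins, Prpf38a (a tri-snRNP protein needed for activation) averaged 157 TPM and Prpf19 (the scaffold of the Prp19 complex) 1.22 TPM. In the Lsm ring, Lsm7 averaged 446 TPM and Lsm6 25.1 TPM. Of the other Lsm genes, Lsm14a averaged 119 TPM and Lsm11 1.37 TPM. The SR protein gene Srsf7 averaged 315 TPM, and Srsf12, a member of the SR family that represses splicing, 0.0817 TPM, with a highest value of 1.42 TPM. The genes of 1 complex were thus listed at levels that differed many times over. Sm and Lsm genes are short and have processed pseudogene copies, which can share their reads, so the level of any 1 of them is uncertain.

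**Figure D1:**
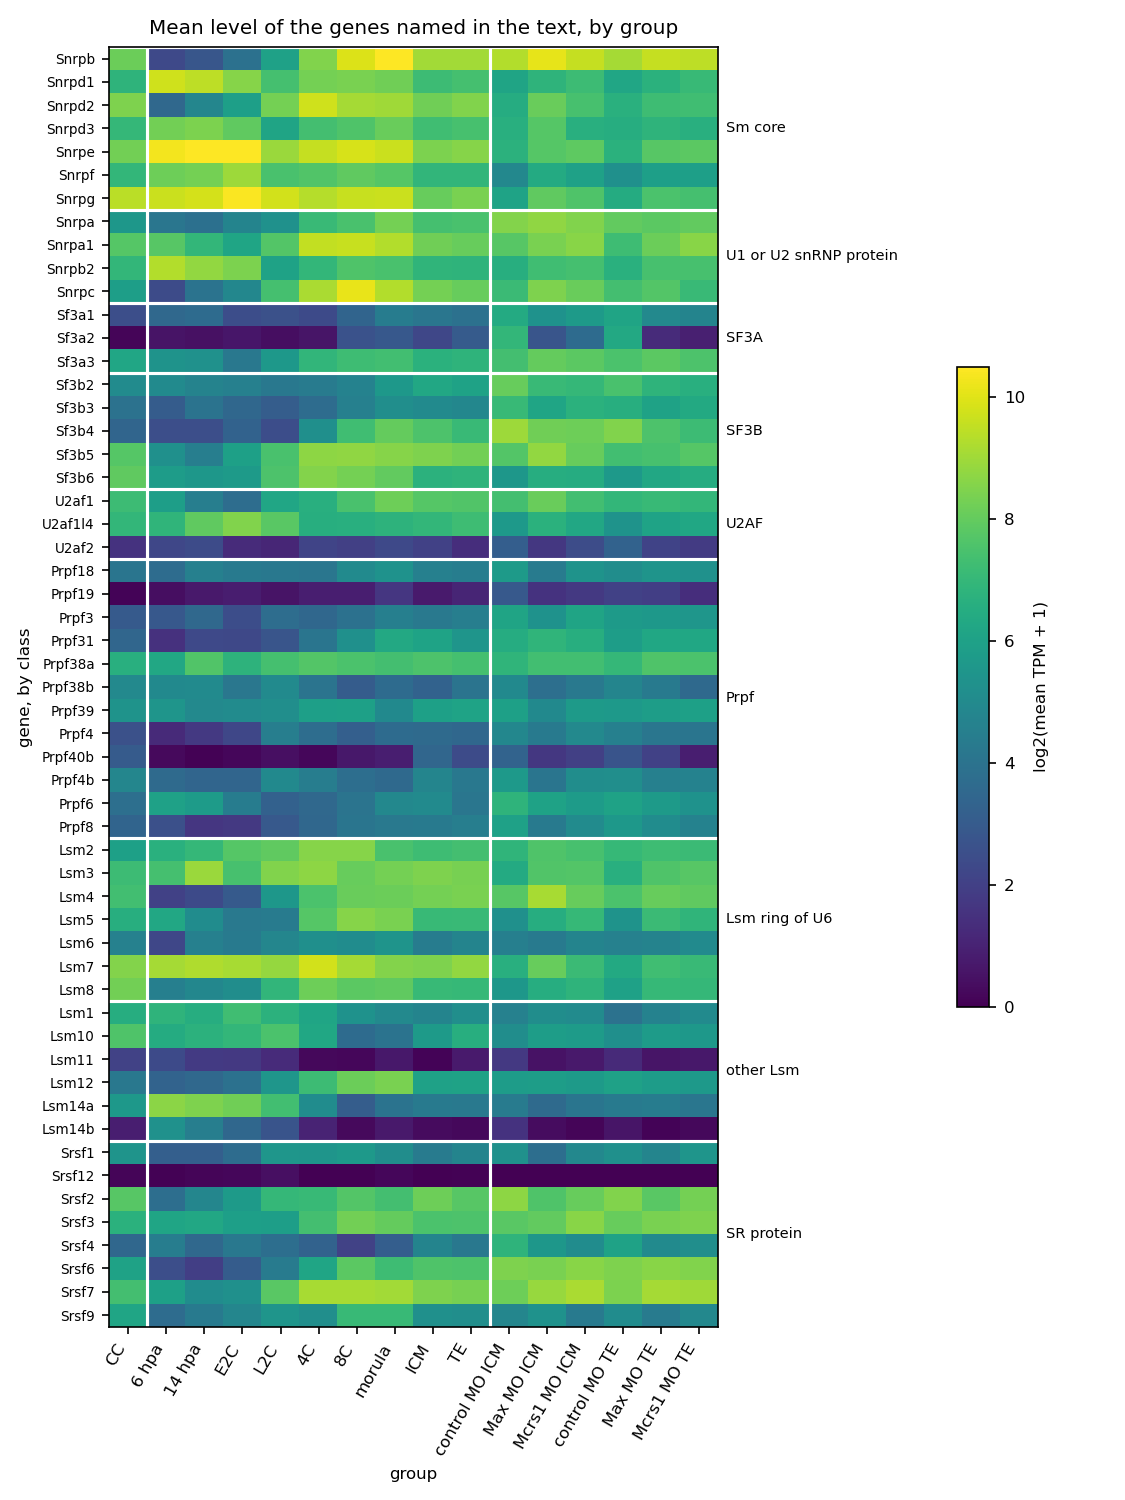
Mean level of the 55 members named in the text (rows, grouped by class) in each of the 16 groups (columns), as log2 of the mean TPM plus 1. Cumulus cells, SCNT stages and morpholino groups are parted by white lines. The rows of Snrpb and Snrpd2 are dark at 6 hpa and bright from 4C to morula, and Sf3a2 is lightest in the 2 control MO groups.

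The summed level of all members was lowest in CCs, with a median of 6384 TPM over the 3 libraries, and highest at 8C, with 12942 TPM. It was 7273 TPM at 6 hpa, 7516 at E2C, 7186 at L2C, 9669 at 4C, 11958 at morula, 8158 in the ICM and 8126 in the TE. The lowest SCNT library was L2C replicate 1 with 3562 TPM, the library with the lowest share of reference genes. Of the 60 members, 14 had their highest mean at morula and 8 at 8C, more than at any other group of the SCNT experiment. At 6 hpa the highest means were those of 6 members, Lsm11, Lsm14a, Lsm14b, Prpf6, Snrpb2 and Snrpd1. In CCs they were those of Lsm8 and Lsm10. All these levels are relative to the assembled loci. Reference genes took 30.4% to 61.8% of that total at L2C, 44.0% to 75.6% at 4C and 76.0% to 84.4% at 8C. The levels were not rescaled over annotated genes here, so the stage with the highest level may differ on that scale.

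At 6 hpa the embryo's members differed from those of the donor cells in both directions, which compares the RNA of the oocyte with that of the nuclear donor. Of 58 members tested, 7 were higher at 6 hpa and 21 lower, against 25.8% and 35.6% of all genes, and with quantile normalization 13 were higher and 15 lower. The median difference was -0.37 on the log2 scale for the members and -0.28 for all genes. Of the SR proteins, 7 of 10 tested were lower and 0 higher. The Sm core was split, with 3 of 7 genes higher and 2 lower.

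Snrpb, which encodes the SmB protein, was at 325, 303 and 200.4 TPM in the 3 CC libraries. At 6 hpa it was at 0.797 TPM in the lowest of 6 libraries, 3.18 in the median and 8.13 in the highest. No 6 hpa library came near the CC libraries, and the log2 difference was -5.94 (SE 0.56, adjusted p = 1.23e-13, limma). Snrpd2 (SmD2) was at 336, 301 and 428 TPM in CCs and at 4.75, 11.4 and 17.5 TPM in the lowest, median and highest library at 6 hpa, a difference of -5.05 (SE 0.38). The U6 ring gene Lsm4 was at 210, 121 and 140 TPM in CCs and between 0.722 and 7.32 TPM at 6 hpa, a difference of -5.43 (SE 0.47). These 3 ring genes had lower values in every 6 hpa library than in any CC library. Lsm8, the subunit that sets the U6 ring apart from the decay ring, had a log2 difference of -3.73, Srsf2 -3.95, Srsf6 -3.59, Snrpc (the C protein of U1, which helps it hold the 5′ splice site) -3.55 and Prpf40b -2.74. In the other direction, Snrpd1 (SmD1) was at 129, 97.2 and 110 TPM in CCs and from 786 to 905 TPM at 6 hpa, a rise of 2.92 (SE 0.28). Snrpe (SmE) was at 330, 238 and 340 TPM in CCs and from 1225 to 1339 TPM at 6 hpa, a rise of 2.09 (SE 0.21). Again no library of the 2 groups overlapped. Lsm14b was higher by 4.399, Lsm14a by 3.06, Snrpb2 (U2 B″) by 2.32, Prpf6 (which bridges U5 and U4/U6) by 2.32 and Snrpf (SmF) by 1.21. All 15 differences named here passed the test with any 1 library left out. A list of 70 other spliceosome genes held snRNP, Prp19 complex, helicase and splicing kinase genes, among other splicing factors. Of these 70, 19 were higher and 18 lower.

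**Figure D2:**
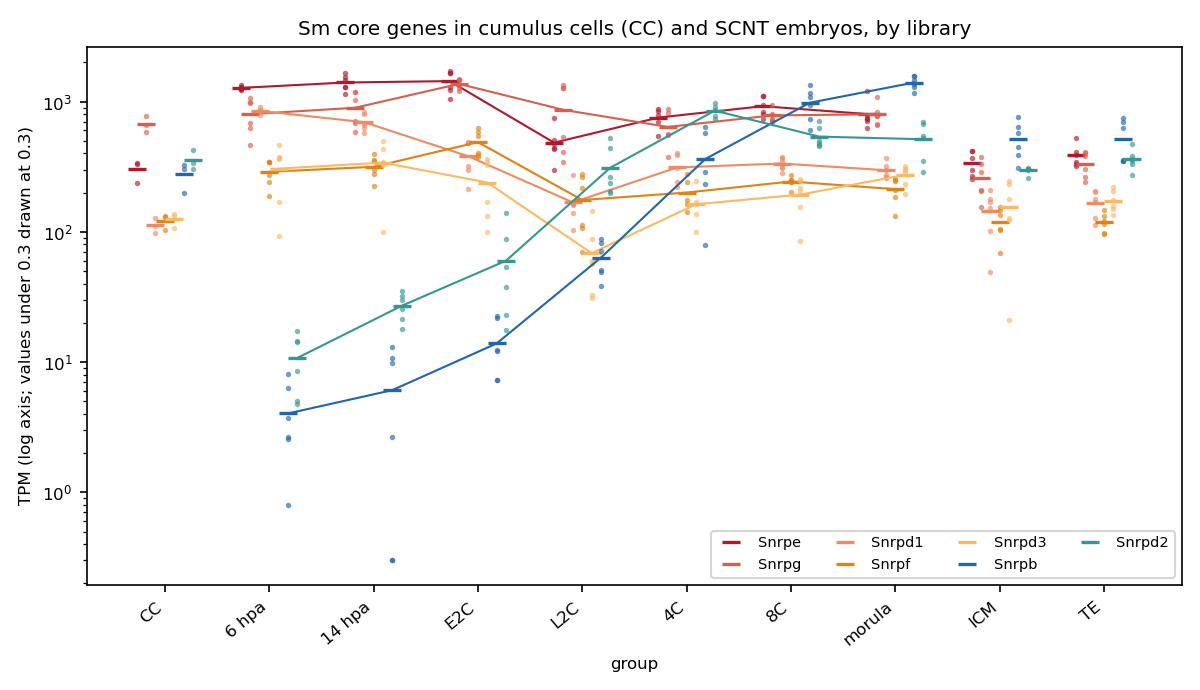
Level of the 7 Sm core genes in each library (points), in TPM on a log axis, with the mean of each group as a bar and lines joining the means from 6 hpa to morula. At 6 hpa the means reach from 4.03 TPM for Snrpb to 1274 TPM for Snrpe, and at 8C from 193 to 980 TPM.

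The Sm ring holds its 7 proteins in equal number, but its mRNA levels were far from equal in the first embryonic stages. The mean of the highest Sm gene exceeded that of the lowest 5.98-fold in CCs (Snrpg over Snrpd1), 316-fold at 6 hpa (Snrpe over Snrpb), 230.2-fold at 14 hpa and 103-fold at E2C. Within single libraries the ratio ran from 151 to 1615 at 6 hpa and from 53.4 to 228 at E2C. It was 13.6-fold at L2C, 5.24-fold at 4C, 5.07-fold at 8C, 6.59-fold at morula, 4.35-fold in the ICM and 4.39-fold in the TE. The ranges of single libraries at 6 hpa and at 4C, where they ran from 5.22 to 11.6, did not overlap. The Lsm ring showed a ratio of 15.7 in CCs, 178 at 6 hpa (Lsm7 over Lsm4), 144 at 14 hpa, 80.6 at E2C, 23.5 at L2C, 23.9 at 4C, 16.3 at 8C and 8.71 at morula, and again 17.5 in the ICM and 17.3 in the TE. These ratios are a description without a test, since the genes were picked as the highest and lowest.

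From 6 to 14 hpa, 5 of 58 members rose and 4 fell, against 6.14% and 4.94% of all genes, and with TPM rescaled over the annotated genes 7 rose and 3 fell. The median change was -0.02 for the members and 0.01 for all genes. Lsm6 was at 2.85, 3.48 and 5.18 TPM in the lowest, median and highest library at 6 hpa and at 10.9, 23.2 and 33.02 TPM at 14 hpa, a rise of 2.24 (SE 0.26, adjusted p = 9.07e-09, limma). Lsm3 was at 136, 161 and 205 TPM and then at 377, 467 and 685 TPM, a rise of 1.52 (SE 0.21). Neither gene's groups overlapped. Prpf38a rose by 1.37, Snrpd2 by 1.36 and Snrpc by 1.35, and U2af1 fell by 1.48, Lsm5 by 1.19, Srsf7 by 1.15 and Lsm14b by 1.04. The calls of Snrpc, Srsf7 and Lsm14b were lost without any 1 of 7, 4 and 6 of the 12 libraries. With replicates 1 to 3 alone 4 members passed the test, against 10 with replicates 4 to 6. Of the 70 other spliceosome genes, 3 rose and 3 fell.

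From 14 hpa to E2C, 2 members rose and 2 fell, against 2.78% and 3.05% of all genes. Sf3b5 was at 6.63, 22.7 and 30.6 TPM in the lowest, median and highest library at 14 hpa and at 43.4, 62.4 and 80.9 TPM at E2C, a rise of 1.62 (SE 0.31, adjusted p = 0.000325, limma). Lsm3 went back to 131, 182 and 207 TPM, a change of -1.47 (SE 0.21). Both pairs of groups were apart. Snrpb rose by 1.61 and Prpf6 fell by 1.68, calls that were lost without any 1 of 4 and 2 of the 12 libraries. The calls differed between the 2 sets of replicates, also in direction: 14 members passed with replicates 1 to 3 (10 up, 4 down), 9 with replicates 4 to 6 (0 up, 9 down) and 12 with quantile normalization (5 up, 7 down). The median change was 0.10 for the members and 0.12 for all genes, and of the other spliceosome genes 0 rose and 8 fell.

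Between E2C and L2C, 20 members rose and 5 fell, against 23.7% and 11.2% of all genes, so the share that rose was 34.5%. The median change was 0.38 for the members and 0.26 for all genes. Of the SR proteins, 5 of 10 tested rose and 0 fell. The Sm core went mostly the other way, with 2 genes up, 4 down and a median of -1.17, and with 3 down when TPM were rescaled over annotated genes or quantile normalized. Srsf7, an SR protein, was at 10.5, 30.4 and 71.7 TPM in the lowest, median and highest library at E2C and at 163, 233 and 274 TPM at L2C, a rise of 2.86 (SE 0.37, adjusted p = 1.11e-08, limma). Snrpd2 was at 17.8, 45.7 and 140 TPM and then at 199, 249.5 and 524 TPM, a rise of 2.599 (SE 0.32). Lsm4 was at 4.18, 5.48 and 13.6 TPM and then at 20.4, 43.7 and 76.0 TPM, a rise of 2.52 (SE 0.39). In none of these 3 did the groups overlap. Snrpc rose by 2.51, U2af1 by 2.36, Prpf4 (a U4/U6 protein) by 2.30, Snrpb by 2.17 and Sf3b6, the branch point contact of SF3B, by 1.75.

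Of the genes that fell into L2C, Snrpe was at 1053, 1483 and 1704 TPM in the lowest, median and highest library at E2C and at 301, 456 and 754 TPM at L2C, a log2 change of -1.598 (SE 0.17, adjusted p = 1.32e-10, limma). Snrpb2 was at 159, 332 and 526 TPM and then at 14.1, 64.1 and 107 TPM, a change of -2.39 (SE 0.30). Both groups were apart. Snrpd3 fell by 1.82, Snrpf by 1.62 and Snrpd1 by 1.17. These are genes of high level at 6 hpa: Snrpd3 had a median of 367 TPM there, Snrpf 309 TPM and Snrpd1 848 TPM. All 13 changes named for this step passed with any 1 library left out, and without L2C replicate 1 the count was 26 members. With quantile normalization the fall of Snrpe was 0.90, under 2-fold, and with rescaled TPM that of Snrpd1 was 0.83. Of the 70 other spliceosome genes, 22 rose and 6 fell. Of the members, 12 rose and 6 fell with replicates 1 to 3 alone, and 22 rose and 8 fell with replicates 4 to 6.

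Between L2C and 4C, 19 members rose and 3 fell, whereas of all genes 11.8% rose and 26.6% fell. With TPM rescaled over annotated genes 17 members rose and 6 fell. The median change was 0.50 for the members and -0.33 for all genes. All 4 U1 and U2 proteins rose (Snrpa by 1.88, Snrpa1 by 1.72, Snrpb2 by 1.05 and Snrpc by 1.83), and 3 of 4 with rescaled TPM or quantile normalization. Of the Lsm ring 3 of 7, of the Sm core 3 of 7 and of SF3B 3 of 6 rose, and none of these fell. Among the 70 other spliceosome genes 9 rose and 2 fell. Of the members, 14 rose and 1 fell with replicates 1 to 3 alone, and 22 rose and 6 fell with replicates 4 to 6.

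Lsm5 was at 8.59, 17.2 and 39.7 TPM in the lowest, median and highest L2C library and at 108, 135, 252, 290 and 255 TPM in the 5 libraries at 4C, a rise of 3.40 (SE 0.33, adjusted p = 2.48e-12, limma). Snrpb was at 38.1, 61.3 and 88.2 TPM and then at 78.8, 235, 288, 577 and 634 TPM, a rise of 2.23 (SE 0.49). Lsm5 was apart in the 2 groups, and Snrpb overlapped through 4C replicate 1, the library with the second lowest share of reference genes. Sf3b4, the SF3B subunit that contacts pre-mRNA upstream of the branch point, was at 0.671, 3.06 and 10.5 TPM and then at 19.3, 3.81, 8.48, 64.6 and 86.8 TPM, a rise of 2.35 (SE 0.67), with 2 of the 4C libraries inside the L2C range. Lsm4 rose by 2.08 and Lsm12 by 1.71. Lsm14a fell by 2.15, Lsm14b by 1.75 (0.95, under 2-fold, with quantile normalization) and Prpf38b by 1.12, the latter lost without L2C replicate 1 (-1.03), L2C replicate 2 (-1.003) or 4C replicate 5 (-0.77).

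From 4C to 8C, 7 members rose and 2 fell, against 11.5% and 8.23% of all genes. This split turned with the scale, to 4 up and 10 down with TPM rescaled over annotated genes and to 5 up and 6 down with quantile normalization. The median change was 0.27 for the members and 0.04 for all genes, and -0.18 and -0.12 for the members on the 2 other scales. Srsf6, an SR protein, was at 16.7, 42.2, 29.8, 159 and 108 TPM at 4C and at 90.4, 246 and 385 TPM in the lowest, median and highest 8C library, a rise of 1.92 (SE 0.43, adjusted p = 0.000905, limma), with an overlap from the 2 highest 4C libraries. Sf3b4 rose by 2.54, Srsf9 by 1.76, Snrpb by 1.71, Prpf31 by 1.25 and Srsf3 by 1.09. Lsm10 of the U7 particle was at 21.5, 129, 97.3, 61.6 and 67.9 TPM at 4C and at 1.58, 13.4 and 17.9 TPM at 8C, a change of -2.598 (SE 0.57). Lsm14a was at 42.5, 39.4, 34.8, 26.8 and 25.2 TPM and then at 5.65, 6.78 and 11.4 TPM, a change of -2.02 (SE 0.44). Both of the last 2 were apart. The calls of Prpf31, Sf3a2 (1.61) and Srsf3 were lost without any 1 of 4, 6 and 3 of the 11 libraries, and that of Snrpb without 4C replicate 1 (1.25). Without 4C replicate 4 or 5 the count was 14 members. Of the other spliceosome genes 10 rose and 1 fell. With replicates 1 to 3 alone 8 members rose and 1 fell (median 0.38), and with replicates 4 to 6 alone 8 rose and 4 fell (median -0.06).

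From 8C to morula 0 members rose and 2 fell, against 8.74% and 3.48% of all genes. The median change was 0.10 for the members and 0.20 for all genes. At an unadjusted p under 0.05 there were 7 members. Lsm2 was at 345, 375 and 434 TPM in the lowest, median and highest 8C library and at 125, 176 and 224 TPM at morula, a change of -1.11 (SE 0.32, adjusted p = 0.0141, limma) without overlap. Prpf39, a U1 associated protein, fell by 1.20, a call lost without any 1 of 6 of the 12 libraries. Other spliceosome genes had 2 rises and 1 fall.

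**Figure D3:**
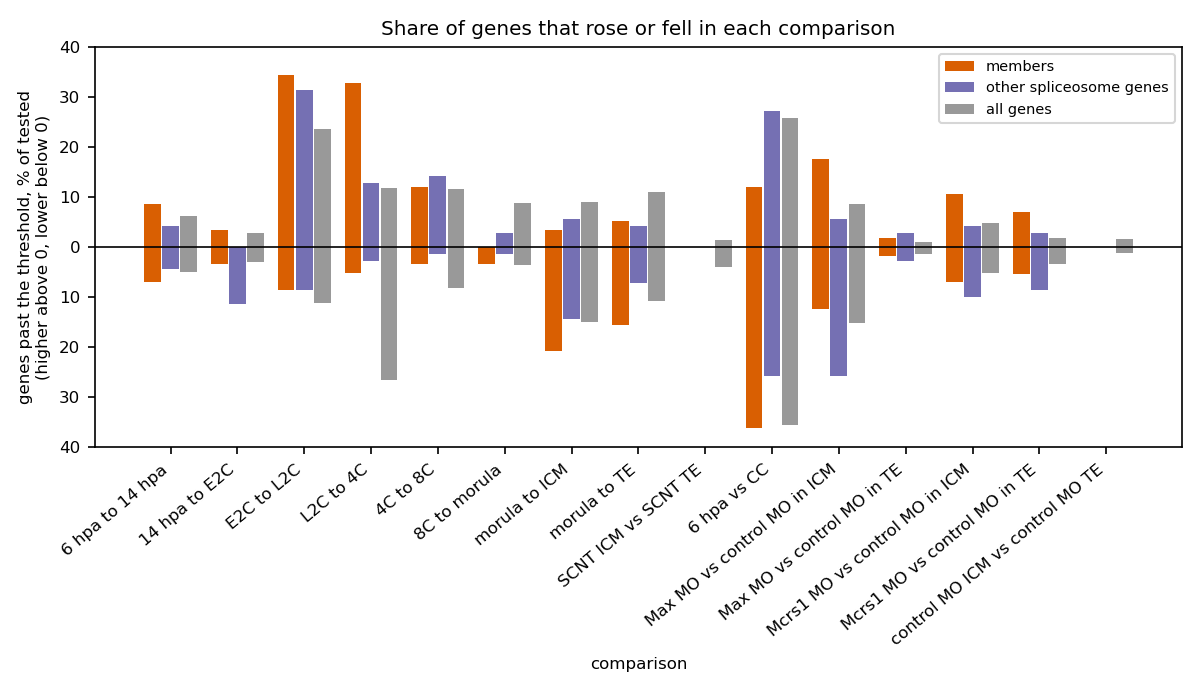
Share of genes that rose (above 0) or fell (below 0) in each comparison, in percent of those tested, for the 60 spliceosome members, the 70 other spliceosome genes and all genes. Members reach 34.5% up from E2C to L2C and stand above all genes (11.8%) from L2C to 4C. No bar is drawn for members between ICM and TE.

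In blastocysts the Sm core was lower than at morula in both tissues. From morula to ICM 2 members rose and 12 fell, against 8.96% and 15% of all genes, and from morula to TE 3 rose and 9 fell, against 11% and 10.8%. These 2 comparisons share the morula libraries. The median change into the ICM was -0.49 for the members and -0.16 for all genes, and into the TE -0.38 and -0.03. Of the 7 Sm genes 5 fell into the ICM and 3 into the TE (2 with quantile normalization), with all 7 log2 changes below 0 in each. Of the other spliceosome genes 4 rose and 10 fell into the ICM, and 3 rose and 5 fell into the TE. The 2 sets of replicates differed. With replicates 1 to 3 alone 1 member rose and 18 fell into the ICM (median -0.88), and 2 rose and 11 fell into the TE (-0.67). With replicates 4 to 6 alone 6 rose and 7 fell into the ICM (-0.19), and 4 rose and 6 fell into the TE (-0.17). ICM replicates 1 to 3 had 6177 to 6771 genes at 1 TPM or more, against 9011 to 10032 in ICM replicates 4 to 6.

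Snrpb was at 1155, 1417 and 1561 TPM in the lowest, median and highest morula library, at 309, 515 and 759 TPM in the ICM and at 347, 490 and 746 TPM in the TE. The changes were -1.48 and -1.503 (SE 0.46 each, adjusted p = 0.0133 and 0.0129, limma), and with a pseudocount of 0.1 neither passed (adjusted p = 0.0913 and 0.101). Snrpg (SmG) was at 658, 770.3 and 1090 TPM at morula, at 155, 248 and 378 TPM in the ICM and at 240.3, 344 and 412 TPM in the TE, changes of -1.66 and -1.26 (SE 0.26 each). Lsm12 was at 245, 298 and 518 TPM at morula, at 45.8, 64.7 and 75.7 TPM in the ICM and at 41.9, 63.5 and 85.2 TPM in the TE, a change of -2.35 (SE 0.32) in both. For these 3 genes no blastocyst library reached a morula library. Srsf9 fell by 1.77 and 1.83, Lsm5 by 1.46 and 1.26, and Sf3b6 by 1.26 and 1.19 into the ICM and TE. Snrpe fell by 1.24 into the ICM, and Snrpa1 by 1.28 and Snrpc by 1.32 into the TE. Prpf40b, a U1 associated protein, rose by 2.09 and 1.37. Lsm10 was at 8.28, 12.1 and 23.8 TPM at morula and at 75.7, 100.03 and 110.4 TPM in the TE, a rise of 2.72 (SE 0.54) without overlap. The calls of Prpf18 (-1.21) and Prpf4b (1.10) in the ICM and of Prpf39 (1.22) in the TE were lost without any 1 of 4, 6 and 2 of the 12 libraries. Leaving out ICM replicate 3, in which Prpf3 was listed at 0 and Prpf18 at 0.329 TPM, the count into the ICM was again 14.

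Between the ICM and TE of SCNT blastocysts 0 of 58 members passed limma's test in either direction, whereas of all genes 1.47% were higher and 3.87% lower in the ICM. At an unadjusted p under 0.05 there were 3 members. Lsm10 had the smallest p, at 0.869, 61.0 and 98.2 TPM in the ICM and 75.7, 100.03 and 110.4 TPM in the TE, a difference of -1.56 (SE 0.54, adjusted p = 0.0816, limma). Prpf38b differed by -1.003 (SE 0.41, adjusted p = 0.149, limma). Without ICM replicate 1, 4, 5 or 6, 1 member passed. Of the other spliceosome genes 0 passed.

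In the morpholino experiment the targeted genes came first. Max mRNA in control MO ICM was at 8.42 and 38.0 TPM, with 0.443 and 6.82 in Max MO ICM, 28.5 to 34.5 in control MO TE and 8.68 to 16.3 in Max MO TE. Under the other morpholino Max mRNA was at 9.25 to 14.4 TPM in Mcrs1 MO ICM, inside the control MO range. In Mcrs1 MO TE it was at 15.7 to 17.6 TPM, below control MO TE and overlapping Max MO TE. Mcrs1 mRNA was at 253 to 310 TPM in control MO ICM, 73.4 to 86.8 in Mcrs1 MO ICM, 219 to 294 in control MO TE and 41.1 to 45.5 in Mcrs1 MO TE. It was at 218 to 242 TPM in Max MO ICM and 194 to 206 in Max MO TE. A morpholino need not lower its mRNA, so these levels are a limited check. The 8 TE markers summed to 17002 TPM in control MO ICM replicate 1, near the 16257 to 21998 TPM of the TE libraries, and to 377 TPM in replicate 2, with 2877 and 6202 TPM in Max MO ICM and 8755 and 12395 TPM in Mcrs1 MO ICM. The 8 ICM markers summed to 1493 and 2047 TPM in control MO ICM, 1186 and 1321 in Max MO ICM, 447 and 1055 in Mcrs1 MO ICM and 179 to 581 in the TE libraries. Whether values in the ICM moved with these markers, and their part in the results, was not tested. The ICM counts of all members and of the classes described are therefore also given without control MO ICM replicate 1. The comparisons of both morpholinos share the control MO libraries of a tissue. Reference genes took 85.5% to 90.3% of the assembled total in the control MO libraries and 93.6% to 94.4% in the knockdown libraries, without overlap. Control MO TE replicate 1 had the fewest aligned bases of all libraries, 1.00 gigabases. The part of these library differences in the results was not tested.

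In all 4 comparisons with control MO Sf3a2 was lower, and most genes of the Sm core and the Lsm ring had a difference above 0. In the ICM, Max MO gave 10 members higher and 7 lower, against 8.65% and 15.1% of all genes. With TPM rescaled over annotated genes 8 were higher and 11 lower, and without control MO ICM replicate 1 these were 7 and 11. In the TE, Max MO gave 1 higher and 1 lower, against 1.04% and 1.45%. Mcrs1 MO gave 6 higher and 4 lower in the ICM, against 4.88% and 5.21%, and 3 and 5 without control MO ICM replicate 1. In the TE, Mcrs1 MO gave 4 higher and 3 lower, against 1.77% and 3.31%. The median differences of the members were 0.22, 0.18, 0.14 and 0.13 for Max MO in ICM and TE and Mcrs1 MO in ICM and TE, beside -0.21, -0.19, -0.05 and -0.24 for all genes. That of Max MO in the ICM was -0.07 without control MO ICM replicate 1. Other spliceosome genes gave 4 higher and 18 lower, 2 and 2, 3 and 7, and 2 and 6 in the same order.

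All 7 Sm genes had a log2 difference above 0 in each of the 4 comparisons, with medians of 1.33, 0.56, 1.08 and 0.69, and 3, 0, 3 and 1 of them passed the test. Of all genes, 43.5%, 40.02%, 48.2% and 39.005% were above 0 in the same order, and 8.65%, 1.04%, 4.88% and 1.77% were higher past the threshold. Without control MO ICM replicate 1 the ICM medians were 0.75 and 0.65, with 2 passing for Max MO and 0 for Mcrs1 MO, where 6 of 7 were then above 0. Snrpg was at 28.1 and 104 TPM in control MO ICM, 288 and 202 in Max MO ICM, 173 and 209 in Mcrs1 MO ICM, 80.1 and 95.4 in control MO TE, 174 and 187 in Max MO TE and 191 and 141 in Mcrs1 MO TE. All 8 knockdown libraries were above the 4 control MO libraries, and control MO ICM replicate 1 was lowest. The difference was 2.13 (SE 0.46, adjusted p = 0.00818, limma) for Max MO in the ICM and 1.79 (SE 0.46, adjusted p = 0.0346) for Mcrs1 MO in the ICM. Snrpd2 was at 66.2 and 110 TPM in control MO ICM, 299 and 252 in Max MO ICM, 176 and 170 in Mcrs1 MO ICM, 97.3 and 105 in control MO TE, 155 and 145 in Max MO TE and 163 and 141 in Mcrs1 MO TE, again without overlap. It differed by 1.67 (SE 0.24) for Max MO in the ICM and 1.01 (SE 0.24) for Mcrs1 MO in the ICM. Snrpf was higher by 1.71 in Max MO ICM. Snrpe was higher by 1.164 in Mcrs1 MO ICM and 1.15 in Mcrs1 MO TE. Without control MO ICM replicate 1 Snrpg in Mcrs1 MO ICM differed by 0.86, Snrpf in Max MO ICM by 0.90 and Snrpd2 in Mcrs1 MO ICM by 0.65, and none passed.

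Of the 7 genes of the Lsm ring, 6 were above 0 for Max MO in the ICM and 7 in the other 3 comparisons, and 4, 1, 3 and 2 passed. The shares of all genes were 43.5%, 40.02%, 48.2% and 39.005% above 0, and 8.65%, 1.04%, 4.88% and 1.77% higher past the threshold. Without control MO ICM replicate 1 the ICM counts of the Lsm ring were again 4 and 3. Lsm5 was at 27.6 and 47.7 TPM in control MO ICM, 108 and 77.9 in Max MO ICM, 118 and 138 in Mcrs1 MO ICM, 33.5 and 47.1 in control MO TE, 141 and 143 in Max MO TE and 117 and 112 in Mcrs1 MO TE. No knockdown library overlapped a control MO library. It was the only member besides Sf3a2 past the threshold in all 4 comparisons, with differences of 1.31, 1.81, 1.79 and 1.502 (SE 0.30 each). With the trend on transcript length removed it passed only in Mcrs1 MO ICM, and the values in Max MO ICM, Max MO TE and Mcrs1 MO TE were 0.03, 1.12 and 0.76 (adjusted p = 0.954, 0.0675 and 0.133, limma). Lsm3 was higher by 1.27 and 1.21 in Mcrs1 MO ICM and TE, Lsm7 by 1.43 and Lsm4 by 1.34 in Max MO ICM (0.44 and 0.18 with the length trend removed, neither past the threshold), and Lsm8 by 1.29 in Mcrs1 MO ICM. Snrpa1 was at 170 and 133 TPM in control MO TE and 377 and 403 in Mcrs1 MO TE, a difference of 1.37 (SE 0.18, adjusted p = 0.00513, limma). Snrpc was higher by 1.28 and U2af1l4 by 1.21 in Max MO ICM, the latter 0.47 without control MO ICM replicate 1.

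Of 13 Prpf genes tested, 3, 0, 1 and 0 were lower and 0 higher in Max MO ICM, Max MO TE, Mcrs1 MO ICM and Mcrs1 MO TE. Their medians were -0.97, -0.15, -0.35 and -0.46. Of all genes, 15.1%, 1.45%, 5.21% and 3.31% were lower and 8.65%, 1.04%, 4.88% and 1.77% higher. Without control MO ICM replicate 1 the ICM counts of Prpf genes were 5 and 1. The share with a difference above 0 was 15.4%, 30.8%, 38.5% and 30.8%, against 43.5%, 40.02%, 48.2% and 39.005% of all genes, which is near the share of all genes in the last 3. Prpf8, the U5 protein at the catalytic centre, was at 71.2 and 53.8 TPM in control MO ICM, 18.3 and 19.3 in Max MO ICM, 38.7 and 26.2 in Mcrs1 MO ICM, 55.1 and 38.8 in control MO TE, 36.6 and 31.0 in Max MO TE and 23.1 and 24.8 in Mcrs1 MO TE. The 4 control MO libraries were highest, by a small margin over 1 Mcrs1 MO ICM library, and the test was passed in Max MO ICM with -1.67 (SE 0.32, adjusted p = 0.00433, limma). Sf3b2 of the SF3B complex was at 239 and 294 TPM in control MO ICM, 146 and 129 in Max MO ICM, 132 and 119 in Mcrs1 MO ICM, 188 and 169.6 in control MO TE, 110 and 115 in Max MO TE and 103 and 89.3 in Mcrs1 MO TE. It had no overlap either and passed in Mcrs1 MO ICM with -1.07 (SE 0.20). Prpf18 was at 51.0 and 53.2 TPM in control MO ICM and 18.1 and 21.4 in Max MO ICM, a difference of -1.36 (SE 0.26). Prpf4b (-1.61), Srsf1 (-1.44), Sf3a1 (-1.05) and Srsf2 (-1.04) were lower in Max MO ICM, Srsf4 (-1.67) and Prpf6 (-1.05) in Mcrs1 MO ICM, and Sf3a1 (-1.40) and Sf3b4 (-1.35) in Mcrs1 MO TE. With the replicate number as a block the 2 calls of Sf3a1 were lost (adjusted p = 0.0535 in Max MO ICM and 0.0502 in Mcrs1 MO TE, limma).

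With 2 libraries per group the calls rested on single libraries. In Max MO ICM, 6 of the 14 named calls other than Sf3a2 passed with any 1 of the 4 libraries left out (Lsm4, Lsm7, Prpf18, Prpf8, Snrpc and Snrpd2), and 0 of 1, 0 of 9 and 0 of 6 did so in Max MO TE, Mcrs1 MO ICM and Mcrs1 MO TE. Over the 4 comparisons, 6 of 57 members, 10.5%, had all 4 control MO libraries above the 8 knockdown libraries, against 9.06% of all genes: Prpf8, Sf3a2, Sf3b2, Sf3b4, Srsf4 and U2af2. The reverse held for 13 members, 22.8%, against 5.62%: Lsm3, Lsm5, Lsm7, Lsm10, Sf3b6, Snrpa1, Snrpb2, Snrpd1, Snrpd2, Snrpe, Snrpf, Snrpg and Srsf7. These 13 are short, with a median longest transcript of 1129 bases against 2936 for the 60 members.

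**Figure D4:**
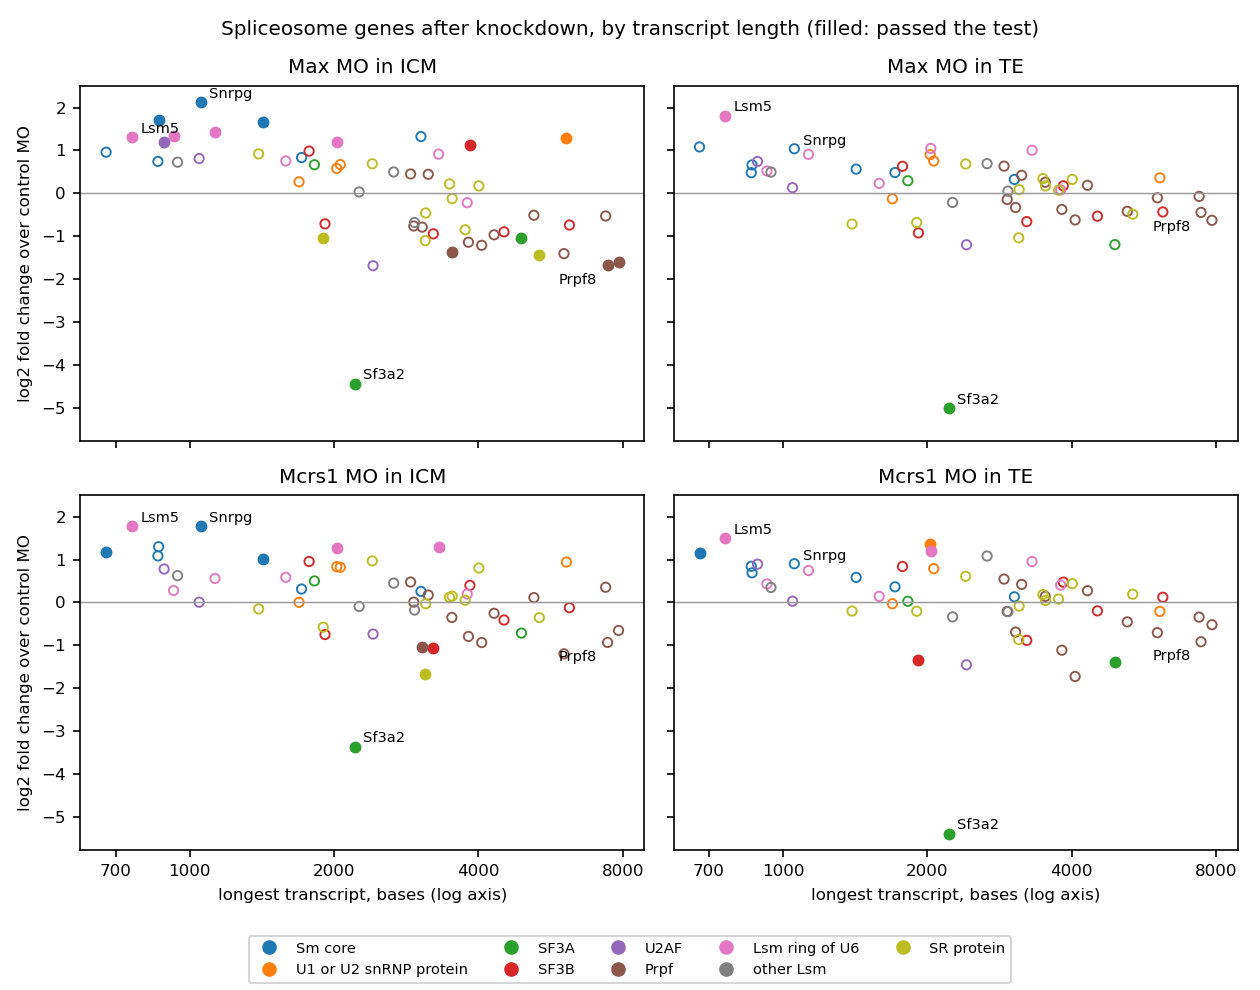
Log2 difference from control MO of the 57 members tested against the length of their longest transcript (bases, log axis), in 4 panels for the 2 morpholinos and 2 tissues. Filled points passed the test, and colours give the class. Points slope down from short Sm and Lsm genes to long Prpf genes, and Sf3a2 lies at -4.44, -5.02, -3.37 and -5.40, far under all others.

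Differences from control MO went with transcript length across genes. Spearman's rho between the log2 difference and the length was -0.45, -0.37, -0.31 and -0.40 over 10791 genes for Max MO ICM, Max MO TE, Mcrs1 MO ICM and Mcrs1 MO TE, and -0.65, -0.50, -0.51 and -0.50 over the 57 members, which is a description, since genes are not independent replicates and share their libraries. With the trend on length removed from each library, the members past the threshold numbered 7 in Max MO ICM (3 higher, 4 lower), 1 in Max MO TE, 8 in Mcrs1 MO ICM and 3 in Mcrs1 MO TE. Of the 7 Sm genes 5, 5, 6 and 5 were then above 0, and 0 passed. Of the Lsm ring 7, 5, 5 and 5 were above 0, and 1, 0, 3 and 0 passed.

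Between the tissues of control MO blastocysts 0 members passed limma's test, against 1.72% higher and 1.2% lower of all genes in the ICM, and 6 had an unadjusted p under 0.05. Snrpa1 (0.54, SE 0.18) and Prpf6 (0.79, SE 0.27) had the smallest p. With control MO ICM replicate 1 or replicate 2 left out, 2 members passed. The interaction term asked whether a response differed between ICM and TE, and 0 members passed for either morpholino, as did 0% of all genes, with 8 members for Max MO and 3 for Mcrs1 MO at an unadjusted p under 0.05. The smallest p for Max MO was that of Prpf18 (-1.62, SE 0.36, adjusted p = 0.159, limma), which was at 36.8 and 32.8 TPM in control MO TE and 41.6 and 41.9 TPM in Max MO TE. For Mcrs1 MO it was that of Snrpc (1.15, SE 0.30, adjusted p = 0.411, limma). Without control MO ICM replicate 1, 1 member passed for Max MO, and without replicate 2, 5 did. The genes with a CACGTG word shown above did not pass in any comparison with control MO. In the order Max MO ICM, Max MO TE, Mcrs1 MO ICM and Mcrs1 MO TE the differences were -0.76, -0.15, 0.00 and -0.21 for Prpf3, 0.27, -0.13, 0.00 and -0.03 for Snrpa, -0.97, 0.19, -0.26 and 0.27 for Prpf39, and -1.21, -0.62, -0.94 and -1.73 for Prpf40b.

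Sf3a2 encodes the SF3A subunit (SAP62) that helps tether U2 to the branch site, and its gene lies at chr10:80798735-80804922 on the plus strand in mm10. It is described apart because its values were already known to be outlying, so they are not independent support for a change. It was at 123 and 121 TPM in control MO ICM, 1.996 and 9.72 in Max MO ICM, 7.43 and 15.9 in Mcrs1 MO ICM, 68.8 and 87.9 in control MO TE, 1.78 and 1.14 in Max MO TE and 0.764 and 0.977 in Mcrs1 MO TE. Every control MO library stood far above every one of the 8 knockdown libraries. The fitted differences were -4.44, -5.02, -3.37 and -5.40 (SE 0.59 each) in the order used above. The value in Max MO TE missed the threshold without any 1 of its 4 libraries (-5.21 to -4.83), that in Mcrs1 MO ICM without Mcrs1 MO ICM replicate 1 (-2.86) and that in Mcrs1 MO TE without Mcrs1 MO TE replicate 2 (-5.48). The fall was numerically smaller in Mcrs1 MO ICM than in Mcrs1 MO TE, and the interaction of 2.03 (SE 0.84) had an adjusted p of 0.551 in limma.

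Low values of Sf3a2 were also found through most of the SCNT experiment. Over the 53 SCNT libraries Sf3a2 ranged from 0 to 25.3 TPM with a median of 0.698, and 32 were below 1 TPM. It was at 0.227, 0.0756 and 0.0472 TPM in CCs. Its median was 0.404 TPM at 6 hpa, 0.375 at 14 hpa, 0.0669 at E2C, 0.28 at L2C, 0.346 at 4C, 3.03 at 8C, 4.72 at morula, 4.44 in the ICM and 3.63 in the TE. The stages up to 4C overlapped one another, as did those from 8C on, and these 2 spans of stages overlapped as well. The highest library was at 2.61 TPM at E2C and 1.19 at 4C. The lowest was at 0.698 TPM at 8C, 0.0997 in the ICM and 0.0562 in the TE. The 4 control MO libraries exceeded all other 64 libraries. Among the members this held also for Prpf8 and Sf3b2, so for 3 of 57, or 5.26%, against 2.46% of all genes tested. Low Sf3a2 values were listed in SCNT stages and in knockdown groups alike, while its partner Sf3a3 was at 31.9 to 216 TPM in the SCNT libraries from L2C to morula. In the other SCNT groups the mean of Sf3a3 was 40.4 TPM at 6 hpa, 39.1 at 14 hpa, 17.6 at E2C, 104 in the ICM and 113 in the TE. The lowest ICM library had 22.6 TPM summed over SF3A.

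**Figure D5:**
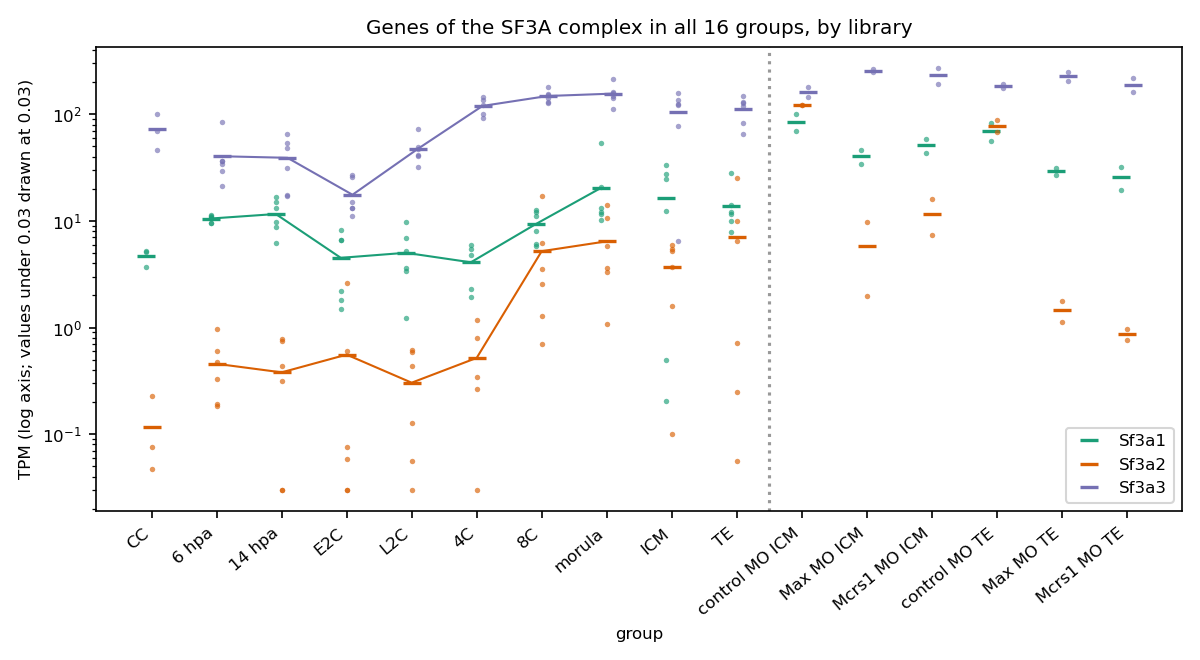
Level of the 3 genes of the SF3A complex in every library of the 16 groups (points), in TPM on a log axis, with group means as bars and lines joining the means from 6 hpa to morula. Sf3a2 lies under Sf3a1 and Sf3a3 in most libraries, meets them in the 4 control MO libraries (68.8 to 123 TPM) and is at 0.764 to 15.9 TPM in the 8 knockdown libraries.

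The partners of Sf3a2 in the same complex did not follow it by the same amount. Sf3a1 was at 69.6 and 101 TPM in control MO ICM, 46.3 and 34.2 in Max MO ICM, 43.5 and 58.6 in Mcrs1 MO ICM, 55.7 and 83.3 in control MO TE, 27.1 and 31.3 in Max MO TE and 32.3 and 19.6 in Mcrs1 MO TE, lower after knockdown but with an overlap of 1 library between the tissues. Sf3a3 was at 144 and 181 TPM in control MO ICM, 249.96 and 264 in Max MO ICM, 193 and 271 in Mcrs1 MO ICM, 192 and 177 in control MO TE, 206 and 249 in Max MO TE and 218 and 162 in Mcrs1 MO TE, with no call. The ratio of the highest to the lowest mean in SF3A was 1.91 in control MO ICM and 2.66 in control MO TE, and between 15.8 and 621 in the other 14 groups.

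The neighbours of Sf3a2 on chromosome 10 had values of their own. Plekhj1, the nearest, was at 64.6 to 77.7 TPM in control MO ICM, 87.9 to 98.7 in Max MO ICM, 77.2 to 99.96 in Mcrs1 MO ICM, 44.7 to 54.6 in control MO TE, 72.9 to 75.7 in Max MO TE and 43.1 to 45.1 in Mcrs1 MO TE. The next gene Dot1l, a histone methyltransferase, was at 7.33 to 12.1 TPM in control MO ICM and 10.8 to 13.5 in control MO TE, against 0.449 to 4.62 in the knockdown groups. Amh on the other side was at most at 0.184 TPM. The loci assembled from the reads at Sf3a2 had 123 and 121 TPM in control MO ICM and 68.8 and 87.7 in control MO TE. Their values after knockdown were 3.05 and 11.4 in Max MO ICM, 7.67 and 15.9 in Mcrs1 MO ICM, 2.17 and 1.61 in Max MO TE and 1.68 and 4.16 in Mcrs1 MO TE. Several of these were above the value of the annotated gene, so the difference from control MO was smaller by the assembled loci, and no group overlapped control MO by either. The Sf3a2 transcript has the highest GC content of the 60 members (62.2%, followed by Lsm4 with 59.4%, lowest 33.9%), against a median of 49.5% of all genes tested, and a length of 2213 bases. With the trend on GC removed from each library all 4 differences passed limma's test, at -4.58, -4.78, -3.29 and -5.26.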

How the data were processed

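Smart-seq2 libraries of 56 SCNT experiment samples and 12 morpholino samples were analysed. The authors trimmed reads with Cutadapt 1.16, aligned them to mm10 with HISAT2 and ran StringTie; the other versions are not given in the sources used here. The submitters' processing notes also name Cufflinks and deepTools. Per the file headers, the deposited gene tables give coverage, a signal, with FPKM and TPM. The deposited TPM were used, summed per symbol. In each library the assembled loci sum to 1000000 and reference symbols are listed beside them, so these TPM are a signal relative to what was assembled. FPKM and coverage, as deposited, served only to estimate depth as aligned gigabases. There were no counts, so no counting interval could be given.

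The 60 members, the lists of other genes and the rule for named genes were chosen with earlier results of these data known. Named were the 8 largest rises and 8 largest falls past the threshold in a comparison, Sf3a2, the highest and lowest gene of each class, and where none passed the 2 members with the smallest p. Groups came from the labels. Some items are not reported here. Genes with a mean of at least 1 TPM over the libraries of a fit entered limma 3.58.1 (R 4.3.3) on log2(TPM + 1), with a mean-variance trend: 11867 genes over 53 SCNT libraries, 12084 with CCs added and 11219 over the 12 morpholino libraries. P-values were Benjamini-Hochberg adjusted over all genes of a comparison, and the tests were two-sided. The script was tested on simulated data. Tables and plots were made with Python 3.11.15, numpy 2.4.6, pandas 2.3.3 and matplotlib 3.10.9. Alternatives were another pseudocount (0.1), no filter on low values, TPM rescaled over annotated genes, quantile normalization, the largest row per symbol in place of the sum, removal of a lowess trend (span 0.3) on GC or, chosen after seeing the data, on transcript length, the compared groups alone, replicates 1 to 3 or 4 to 6 alone, the replicate number as a block, and each library left out in turn.

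Same-numbered libraries deviated together in every pair from 6 to 14 hpa (correlation 0.142 to 0.390) and between SCNT ICM and TE (0.131 to 0.300). The correlation was also above 0 in every pair from 14 hpa to E2C (0.0146 to 0.341), E2C to L2C (0.0186 to 0.168) and L2C to 4C (0.0133 to 0.193). In the later steps it had both signs. The main fits did not pair the libraries, and the replicate number entered only as a block in an alternative fit.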

Additional observations from a re-analysis of the deposited data

Results flagged for a closer look

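Of 306 groups of 4 to 6 libraries tested for a single library far from the others, 19 had one. Chance gives about 1 in 20 such groups. The values below are TPM, and no cause was tested.

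Summed over the Lsm ring of U6, morula replicate 2 had 1336 TPM against 1730 to 1925 in the other libraries of the stage. Summed over SF3A, 6 hpa replicate 2 had 94.5 against 33.4 to 47.6, and morula replicate 2 had 285 against 125 to 180. Summed over SF3B, E2C replicate 1 had 179 against 221 to 245. Summed over SR proteins, 14 hpa replicate 6 had 433 against 354 to 383.

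Sf3a2 was at 2.61 in E2C replicate 6 (others 0 to 0.601) and at 17.0 in 8C replicate 6 (0.698 to 6.17). Sf3a1 was at 54.3 in morula replicate 2 (10.2 to 20.8) and 27.9 in TE replicate 6 (7.84 to 14.0), and Sf3a3 at 84.2 in 6 hpa replicate 2 (21.5 to 36.6). Among Sm genes, Snrpd1 was at 275 in L2C replicate 2 (103 to 167), Snrpd2 at 261 in ICM replicate 4 (299 to 311) and Snrpe at 1201 in morula replicate 1 (631 to 787). Lsm5 was at 39.7 in L2C replicate 2 (8.59 to 19.97). Lsm14b was at 3.58 in L2C replicate 1 (5.57 to 6.74) and 2.53 in morula replicate 1 (0.118 to 0.444). Srsf7 was at 671 in morula replicate 3 (457 to 530), Srsf2 at 865 in ICM replicate 3 (94.2 to 307) and U2af1 at 14.2 in L2C replicate 1 (71.4 to 97.9). L2C replicate 1 is also the library with the lowest share of reference genes.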

How the results depend on the processing

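Of 114 named changes, 76 passed with every single library left out, 48 passed under every other setting, and 0 changed direction. Counts of members past the threshold moved as follows, and the cause was not tested. With replicates 1 to 3 alone they were 4 from 6 to 14 hpa, 14 from 14 hpa to E2C, 1 from 8C to morula and 1 between SCNT ICM and TE. With replicates 4 to 6 alone they were 9, 5 and 1 for the last 3. From 14 hpa to E2C quantile normalization gave 12, and from 4C to 8C rescaled TPM gave 14. With only the compared groups, 4 passed from 8C to morula, 0 for Max MO in ICM, 8 for Max MO in TE and 0 for Mcrs1 MO in ICM. With all genes above 0 tested, 6 passed for Mcrs1 MO in ICM and 1 for the Max MO response between tissues. With the length trend removed, 7, 1 and 3 passed for Max MO in ICM, Max MO in TE and Mcrs1 MO in TE. Sf3a2 with only the compared groups stood at -4.44 (adjusted p = 0.0716, limma) for Max MO in ICM and -3.37 (adjusted p = 0.184, limma) for Mcrs1 MO in ICM.

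With single libraries left out, the counts ranged from 6 to 9 from 6 to 14 hpa, 3 to 7 into E2C (7 without E2C replicate 5), 24 to 27 into L2C, 20 to 26 into 4C, 6 to 14 into 8C, 1 to 2 into morula, 11 to 15 into the ICM, 11 to 13 into the TE, 0 to 1 between SCNT ICM and TE and 26 to 29 against CCs. They ranged from 12 to 25 for Max MO in ICM, 0 to 0 in TE, 0 to 14 for Mcrs1 MO in ICM (0 without Mcrs1 MO ICM replicate 1, 14 without control MO ICM replicate 2), 0 to 4 in TE, 0 to 2 between control MO tissues, 0 to 5 for the Max MO response and 0 to 0 for the Mcrs1 MO response. Sf3a2 ranged from -5.36 to -3.52, -5.21 to -4.83, -3.87 to -2.86 and -5.57 to -5.23 in Max MO ICM, Max MO TE, Mcrs1 MO ICM and Mcrs1 MO TE.

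With the replicate number as a block, no count moved by over 1.5 times (9 members from 6 to 14 hpa and 0 between SCNT ICM and TE, as without it). The block ended 3 named calls, those of Sf3a1 in Max MO ICM and Mcrs1 MO TE and of Snrpf against CCs (0.94). The labels give same-numbered libraries no link besides the number.

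With no read counts, the precision of low values such as those of Sf3a2 is unknown, and with 2 libraries per morpholino group the calls rest on a spread shared over 12 libraries.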

Other observations

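Over the 12 morpholino libraries, some of the genes whose log2 levels followed Sf3a2 most closely were not members. They were named after their values were seen, and the likeness is a description over libraries that fall into control MO and knockdown groups. Pearson's r was 0.975 for Cpsf7, a cleavage factor of mRNA 3′ end formation, 0.970 for Zfp598, a ribosome quality control ligase, 0.963 for Supt5, an elongation factor, and 0.957 for Traf7. Supt5 was at 109 to 179 TPM in the 4 control MO libraries and at 17.0 to 47.7 TPM in the 8 knockdown libraries. Among the members the closest were Sf3a1 (0.885), Sf3b2 (0.881) and Sf3b4 (0.869), and the most opposite were Snrpb2 (-0.898), Lsm8 (-0.884) and Lsm5 (-0.877).

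Of the other spliceosome genes, Bud31 was higher in all 4 comparisons with control MO, by 1.55, 1.49, 1.61 and 1.56 on the log2 scale. Lower in all 4 were Wbp11 (-2.51, -1.81, -1.41 and -2.06) and Txnl4b (-1.996, -1.18, -1.53 and -2.42). Ddx23, a helicase of the tri-snRNP, differed by -3.46 in Max MO ICM and -3.19 in Mcrs1 MO ICM.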
